A study of Mus musculus with 50 samples.

Results

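Smooth muscle contraction genes encode the filaments, calcium stores, ion channels, anchors and regulators of the muscle that surrounds the gut. A list of 42 such genes was read in mouse colon, and each gene whose symbol the probe-to-gene table held was kept. This left 40 genes of the 19494 measured, each with 1 probe set. Kcnma1 and Pdlim7 were not analysed here.

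The study measured colon RNA of mice aged 10 to 12 weeks (11 weeks in the labels) on 50 Affymetrix arrays, with 5 arrays in each of 10 groups. It asked how removing FADD or caspase-8 from the intestinal epithelium (IEC-KO, intestinal epithelial cell knockout) changed the colon, alone or with loss of further cell death genes. FADD is the adaptor that recruits caspase-8 to death receptors, ZBP1 is a nucleic acid sensor, RIPK3 is the kinase that starts necroptosis, and MLKL is the protein that carries it out. The array titles run in 2 number series that may be processing batches, although the labels do not say so, and genotypes were compared within a series; only the 2 floxed controls were also set against each other.

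In the series numbered 1 to 30, the groups were FADD IEC-KO Zbp1 -/- (replicates 1 to 5), CASP8 IEC-KO Mlkl -/- (6 to 10), FADD IEC-KO Mlkl -/- (11 to 15), CASP8 IEC-KO (16 to 20), FADD IEC-KO (21 to 25) and the floxed control Fadd fl/fl (26 to 30). In the series numbered 86 to 124, they were FADD IEC-KO RIPK3 IEC-KO, FADD IEC-KO, CASP8 IEC-KO and the floxed control Casp8 fl/fl. FADD, caspase-8 and, in the double knockout, RIPK3 were lost in the epithelium, by a Cre driver that the labels do not name, whereas Zbp1 -/- and Mlkl -/- are written without a cell type. Each series had 1 floxed line as its control, Fadd fl/fl or Casp8 fl/fl, whichever gene was deleted, so line and series cannot be told apart between the controls. Groups without FADD in the series 86 to 124, and groups without caspase-8 in the series 1 to 30, were set against the floxed line of the other gene. In those comparisons, and in averages over both series that hold them, the deletion and the mouse line cannot be told apart. The same holds wherever groups without caspase-8 were compared with groups without FADD. The RNA came from colon tissue in which muscle is mixed with epithelium, stroma and immune cells. In such tissue, fewer muscle cells and less muscle RNA per cell cannot be told apart.

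Smooth muscle contracts when calcium enters through voltage-gated channels or leaves the sarcoplasmic reticulum and binds calmodulin, which activates myosin light chain kinase. The kinase phosphorylates the light chain of myosin, which then pulls on actin filaments anchored at dense bodies and at the membrane, and myosin phosphatase reverses the step. In the gut, acetylcholine from enteric nerves drives contraction through muscarinic receptors. The contractile genes are switched on by serum response factor and its coactivator myocardin, which bind as a complex at a DNA element called the CArG box.

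Array medians ran from 6.41 to 6.47 log2 units, and epithelial marker genes had a summed signal of 14.71 to 15.04 log2 units on every array. The targeted genes followed the labels for Fadd, Casp8 and Mlkl. Fadd averaged 6.14 to 6.39 in the 5 groups without FADD and 7.30 to 7.61 in the others, Casp8 averaged 8.98 to 9.14 in the 3 groups without caspase-8 and 10.2 to 10.8 in the others, and Mlkl averaged 7.17 and 7.31 in the Mlkl -/- groups and 8.14 to 9.18 in the others. Zbp1 and Ripk3, which rose with FADD loss, separated less: Zbp1 averaged 5.49 in FADD IEC-KO Zbp1 -/- against 7.29 in FADD IEC-KO and 5.68 in Fadd fl/fl, and Ripk3 averaged 6.68 in FADD IEC-KO RIPK3 IEC-KO against 8.09 in FADD IEC-KO and 6.60 in Casp8 fl/fl. All differences below are in log2 units from 1 limma model over the 50 arrays, with p-values adjusted by Benjamini-Hochberg over the 19494 genes. An adjusted p under 0.05 counts as passing. Counts by sign, by size of a fall or by an unadjusted p were not made over all genes, so they describe the list only. Counts from fits with arrays left out or with other settings are given without a share over all genes, and describe the list only as well. The labels do not say that each array is a separate mouse, so the p-values measure the spread between these arrays.

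The mean of the 40 genes on an array set the FADD IEC-KO arrays apart, and set them apart from each other. In the series 1 to 30 it was 8.89, 7.89, 7.73, 8.63 and 8.00 on the FADD IEC-KO arrays (replicates 21 to 25), against 9.09, 9.18, 9.16, 8.94 and 9.14 on the Fadd fl/fl arrays (26 to 30). Every FADD IEC-KO array lay below every floxed array, with replicates 22, 23 and 25 about 1 log2 unit down and replicate 21 close to the controls. In the series 86 to 124 it was 8.90, 9.05, 7.66, 8.76 and 8.29 on the FADD IEC-KO arrays (replicates 89, 95, 117, 120 and 124), against 9.11, 9.07, 8.99, 8.95 and 8.91 on the Casp8 fl/fl arrays (86, 91, 98, 105 and 119). There the groups overlapped, since replicate 95 lay within the control range and replicate 117 was the lowest array of all 50. The median SD of a gene was 0.54 and 0.62 in the FADD IEC-KO groups of the series 1 to 30 and 86 to 124, against 0.11 to 0.28 in the other 8 groups. The same arrays carried most genes with them: replicate 23 was the lowest of its group for 29 of the 40 genes and replicate 21 the highest for 34, while replicate 117 was the lowest for 33 and replicate 95 the highest for 29.

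**Figure D1:**
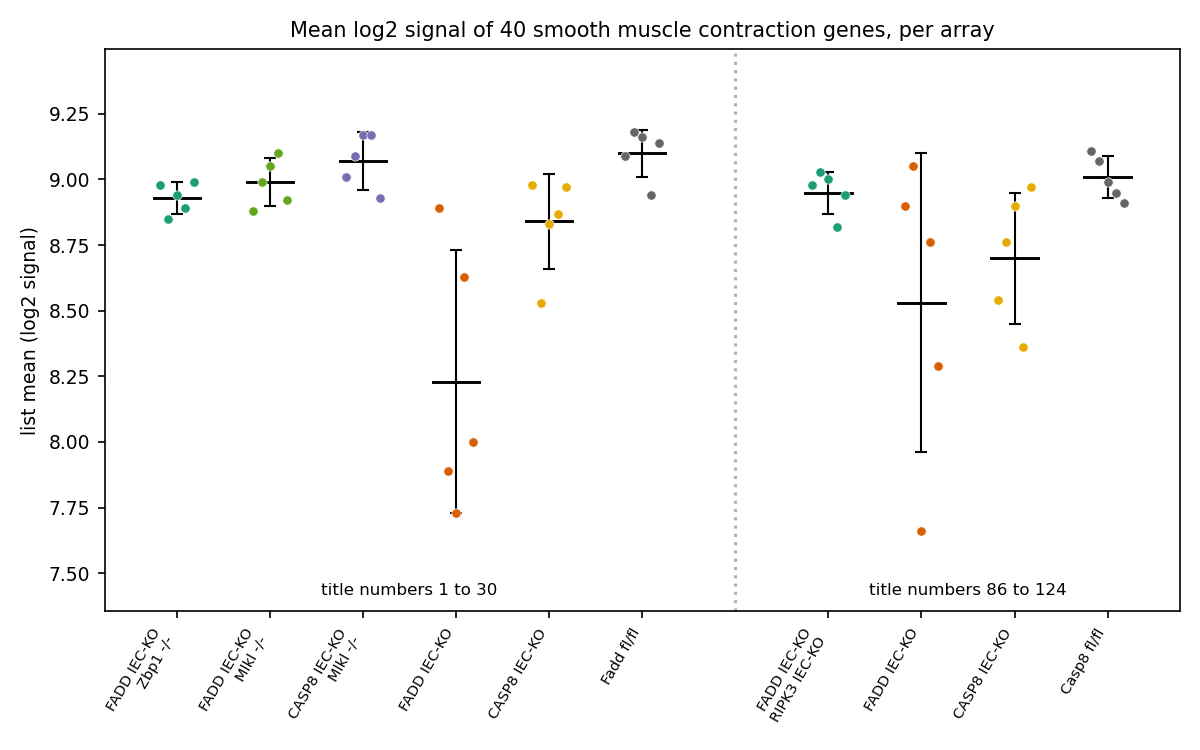
Mean log2 signal of the 40 genes on each array (points), by genotype and title-number series, with the group mean (bar) and SD (whiskers), n = 5 per group. FADD IEC-KO arrays spread from 7.66 to 9.05, whereas arrays of the co-deletions and the floxed controls lay between 8.82 and 9.18.

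Loss of FADD lowered the RNA signal of nearly all genes of the list in the series 1 to 30. Of the 40 genes 36 fell and none rose, where 10.1% of all genes measured fell. The median difference of the 40 was -0.89 (range -1.84 to 0.08), against -0.02 over all genes. For 22 of the 40 every FADD IEC-KO array lay below every Fadd fl/fl array, which held for 4.97% of all genes, and 15 of the 40 were down 2-fold or more. The largest falls were in Pln, Pcp4, Casq2 and Synpo2, and the genes that did not pass were Atp2a2, Srf, Ppp1r12b and Chrm2. Without FADD IEC-KO replicates 22 and 23, the 2 arrays with the lowest means, 10 of the 40 still fell: Acta2, Cnn1, Tpm1, Pln, Casq2, Pcp4, Kcnmb1, Synpo2, Flna and Hspb6. The share of 10.1% belongs to the fit with all arrays, and the count of 10 has no share over all genes beside it.

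The genes of the contractile filament fell throughout, with 11 of 11 past the test and a median of -0.93. Myh11, the smooth muscle myosin heavy chain, had log2 signals of 11.34, 9.77, 9.49, 11.11 and 10.26 in FADD IEC-KO, against 11.59, 11.83, 11.76, 11.40 and 11.61 in Fadd fl/fl. The groups did not overlap, and the difference was -1.24 ± 0.23 (SE, adjusted p = 0.000314), to 0.422 of the control level. Acta2, smooth muscle alpha-actin, had 12.16, 11.51, 11.31, 12.01 and 11.35 in FADD IEC-KO, against 12.42, 12.37, 12.38, 12.35 and 12.46 in Fadd fl/fl. Its difference of -0.73 ± 0.14 (SE, adjusted p = 0.00043) was smaller than that of Myh11, but the 5 control arrays were so close together that the groups again stood apart. Actg2, the gamma-actin typical of gut muscle, had 12.07, 11.01, 10.84, 12.07 and 10.96 in FADD IEC-KO, against 12.39, 12.26, 12.44, 12.30 and 12.25 in Fadd fl/fl, with no overlap and a difference of -0.93 ± 0.22 (SE, adjusted p = 0.00247). Replicates 22, 23 and 25 were about 1 log2 unit below replicates 21 and 24. Tpm1, a tropomyosin that lies along the actin filament, had 11.98, 11.17, 11.21, 11.85 and 11.38 in FADD IEC-KO, against 12.24, 12.34, 12.36, 12.10 and 12.15 in Fadd fl/fl, a difference of -0.72 ± 0.14 (SE, adjusted p = 0.000333) with no overlap. Among the other filament genes the fall was deepest for Cnn1, the actin-binding protein calponin, at -1.16 ± 0.22 (adjusted p = 0.000341), and shallowest for Cald1, caldesmon, at -0.58 ± 0.16 (adjusted p = 0.00878). Myl9, the regulatory light chain of myosin, Tpm2, Tagln, Smtn and Lmod1 lay between, from -1.12 to -0.85.

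Of the genes that control the light chain, the kinase and the phosphatase inhibitor fell while a phosphatase subunit did not pass. Mylk, myosin light chain kinase, had 10.38, 8.81, 8.33, 9.89 and 9.08 in FADD IEC-KO, against 10.56, 10.70, 10.76, 10.43 and 10.69 in Fadd fl/fl. No FADD IEC-KO array reached the control range, and the difference was -1.33 ± 0.25 (SE, adjusted p = 0.000323). Ppp1r14a, an inhibitor of myosin phosphatase also called CPI-17, had 8.52, 7.58, 7.38, 8.23 and 7.67 in FADD IEC-KO, against 8.84, 8.89, 8.90, 8.44 and 8.76 in Fadd fl/fl. It fell by 0.89 ± 0.20 log2 units (SE, adjusted p = 0.00163), with replicate 21 inside the control range. Ppp1r12b, a targeting subunit of the phosphatase, differed by -0.17 ± 0.16 (SE, adjusted p = 0.517). Its signal was among the dimmest 40% of genes.

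Genes of calcium handling gave the widest range of all roles, from the largest fall of the list to no fall at all. Pln, phospholamban, which holds back the calcium pump of the sarcoplasmic reticulum, had 5.80, 4.07, 3.95, 4.80 and 4.01 in FADD IEC-KO, against 6.63, 6.38, 6.21, 6.25 and 6.38 in Fadd fl/fl. All 5 arrays lay below the controls and the difference was -1.84 ± 0.30 (SE, adjusted p = 7.23e-05), to 0.279 of the control level. Pln too was among the dimmest 40% of genes. Pcp4, a small protein that binds calmodulin, had 7.95, 5.84, 5.62, 7.08 and 6.53 in FADD IEC-KO, against 8.02, 8.45, 8.57, 7.94 and 8.55 in Fadd fl/fl. Replicate 21 touched the control range, and the difference was -1.70 ± 0.30 (SE, adjusted p = 0.000156). Casq2, calsequestrin, which binds calcium inside the store, fell to 6.89, 5.45, 4.85, 6.27 and 4.97 in FADD IEC-KO, against 7.10, 7.18, 7.29, 7.28 and 7.41 in Fadd fl/fl, a difference of -1.57 ± 0.28 (SE, adjusted p = 0.000186) without overlap. Atp2a2, the pump that Pln inhibits, had 10.82, 10.98, 10.87, 10.94 and 10.90 in FADD IEC-KO, against 11.01, 10.78, 10.77, 10.69 and 10.88 in Fadd fl/fl. Its groups overlapped fully, at 0.08 ± 0.06 (SE, adjusted p = 0.432). How much of the Atp2a2 signal came from muscle and how much from other cells of the tissue was not measured, so its level in muscle cannot be read from it. Cacna1c, the pore of the L-type calcium channel, Jph2, which ties the store to the surface membrane, and Ryr2, a calcium release channel, fell by 0.69, 0.66 and 0.54 log2 units. Kcnmb1, the beta subunit that tunes the large-conductance potassium channel, had 9.32, 8.58, 8.39, 9.14 and 8.66 in FADD IEC-KO, against 9.68, 9.72, 9.59, 9.56 and 9.65 in Fadd fl/fl. Its difference was -0.82 ± 0.13 (SE, adjusted p = 7.14e-05), the smallest adjusted p of the 40 genes, with no overlap.

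Genes for anchors of the filament fell as well, in 7 of 7 genes of dense bodies and intermediate filaments (median -1.15). Synpo2, which bundles actin at these sites, had 10.11, 8.41, 8.26, 9.76 and 8.77 in FADD IEC-KO, against 10.47, 10.41, 10.43, 10.27 and 10.58 in Fadd fl/fl. The groups did not overlap and the difference was -1.37 ± 0.24 (SE, adjusted p = 0.000159). Flna, the actin cross-linker filamin A, which other cell types also express, had 11.96, 11.12, 10.64, 11.82 and 11.02 in FADD IEC-KO, against 12.35, 12.38, 12.40, 12.13 and 12.28 in Fadd fl/fl, and fell without overlap to 0.501 of the control level (adjusted p = 0.000235). Desmin (Des), the main intermediate filament of muscle, fell by 1.15 ± 0.26 log2 units (SE, adjusted p = 0.00172), its partner synemin (Synm) by 1.30 and Pdlim3 by 1.19, whereas Nexn and Ldb3 fell by 0.55 and 0.41.

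All 3 genes of small heat shock proteins fell. Hspb6, which is phosphorylated during relaxation of smooth muscle, had 8.72, 7.87, 7.65, 8.76 and 7.72 in FADD IEC-KO, against 9.29, 9.32, 9.30, 9.51 and 9.61 in Fadd fl/fl, with no overlap and a difference of -1.26 ± 0.22 (SE, adjusted p = 0.000163). Hspb7 had 9.43, 7.66, 7.25, 8.86 and 7.68 in FADD IEC-KO, against 9.55, 9.52, 9.37, 9.29 and 9.33 in Fadd fl/fl. Replicate 21 sat in the control range while replicates 22, 23 and 25 were more than 1 log2 unit lower, and the difference was -1.23 ± 0.31 (SE, adjusted p = 0.00385). Hspb8, a chaperone that acts with BAG3, had 7.36, 6.14, 6.09, 6.93 and 6.05 in FADD IEC-KO, against 7.61, 7.29, 7.30, 7.32 and 7.89 in Fadd fl/fl, a difference of -0.97 ± 0.20 (SE, adjusted p = 0.000809) with replicate 21 inside the control range. Genes of membrane attachment changed less. Itga7, a laminin-binding integrin subunit, had 7.08, 6.60, 6.48, 7.06 and 6.68 in FADD IEC-KO, against 7.44, 7.47, 7.45, 7.26 and 7.30 in Fadd fl/fl, a difference of -0.61 ± 0.15 (SE, adjusted p = 0.00293) without overlap. Itga8, another integrin subunit, had 7.35, 6.20, 5.82, 6.55 and 6.27 in FADD IEC-KO, against 6.99, 7.05, 7.12, 6.71 and 7.16 in Fadd fl/fl. Its difference was -0.57 ± 0.16 (SE, adjusted p = 0.00921), although replicate 21 was higher than every control array. Dmd, dystrophin, which links actin to the membrane, fell by 0.59 log2 units (adjusted p = 0.011).

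The coactivator of the contractile genes fell while the factor it binds did not pass. Myocd, myocardin, had 6.29, 5.34, 5.33, 5.59 and 5.11 in FADD IEC-KO, against 6.13, 6.50, 6.18, 6.08 and 6.63 in Fadd fl/fl. Replicate 21 overlapped the controls, and the difference was -0.77 ± 0.19 (SE, adjusted p = 0.00321). Srf, serum response factor, which most cell types express, had 8.47, 8.18, 8.27, 8.21 and 8.30 in FADD IEC-KO, against 8.37, 8.39, 8.42, 8.38 and 8.44 in Fadd fl/fl. The groups overlapped at -0.12 ± 0.10 (SE, adjusted p = 0.463). Rbpms2, an RNA-binding protein of gut muscle, had 8.16, 6.95, 6.83, 7.85 and 7.27 in FADD IEC-KO, against 8.28, 8.26, 8.23, 8.28 and 8.44 in Fadd fl/fl, a difference of -0.89 ± 0.20 (SE, adjusted p = 0.00147) with no overlap. The receptors for acetylcholine had the smallest median fall of the roles, at -0.34. Chrm3, the muscarinic receptor that triggers calcium release, had 6.19, 5.81, 5.61, 5.93 and 5.91 in FADD IEC-KO, against 6.26, 6.26, 6.45, 6.07 and 6.33 in Fadd fl/fl, and fell by 0.38 ± 0.13 log2 units (SE, adjusted p = 0.027). Chrm2, which couples to inhibitory G proteins, had 7.87, 7.26, 6.89, 7.27 and 7.17 in FADD IEC-KO, against 7.72, 7.67, 7.52, 7.47 and 7.53 in Fadd fl/fl. Replicate 21 was higher than every control array, and the difference was -0.29 ± 0.13 (SE, adjusted p = 0.128).

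**Figure D2:**
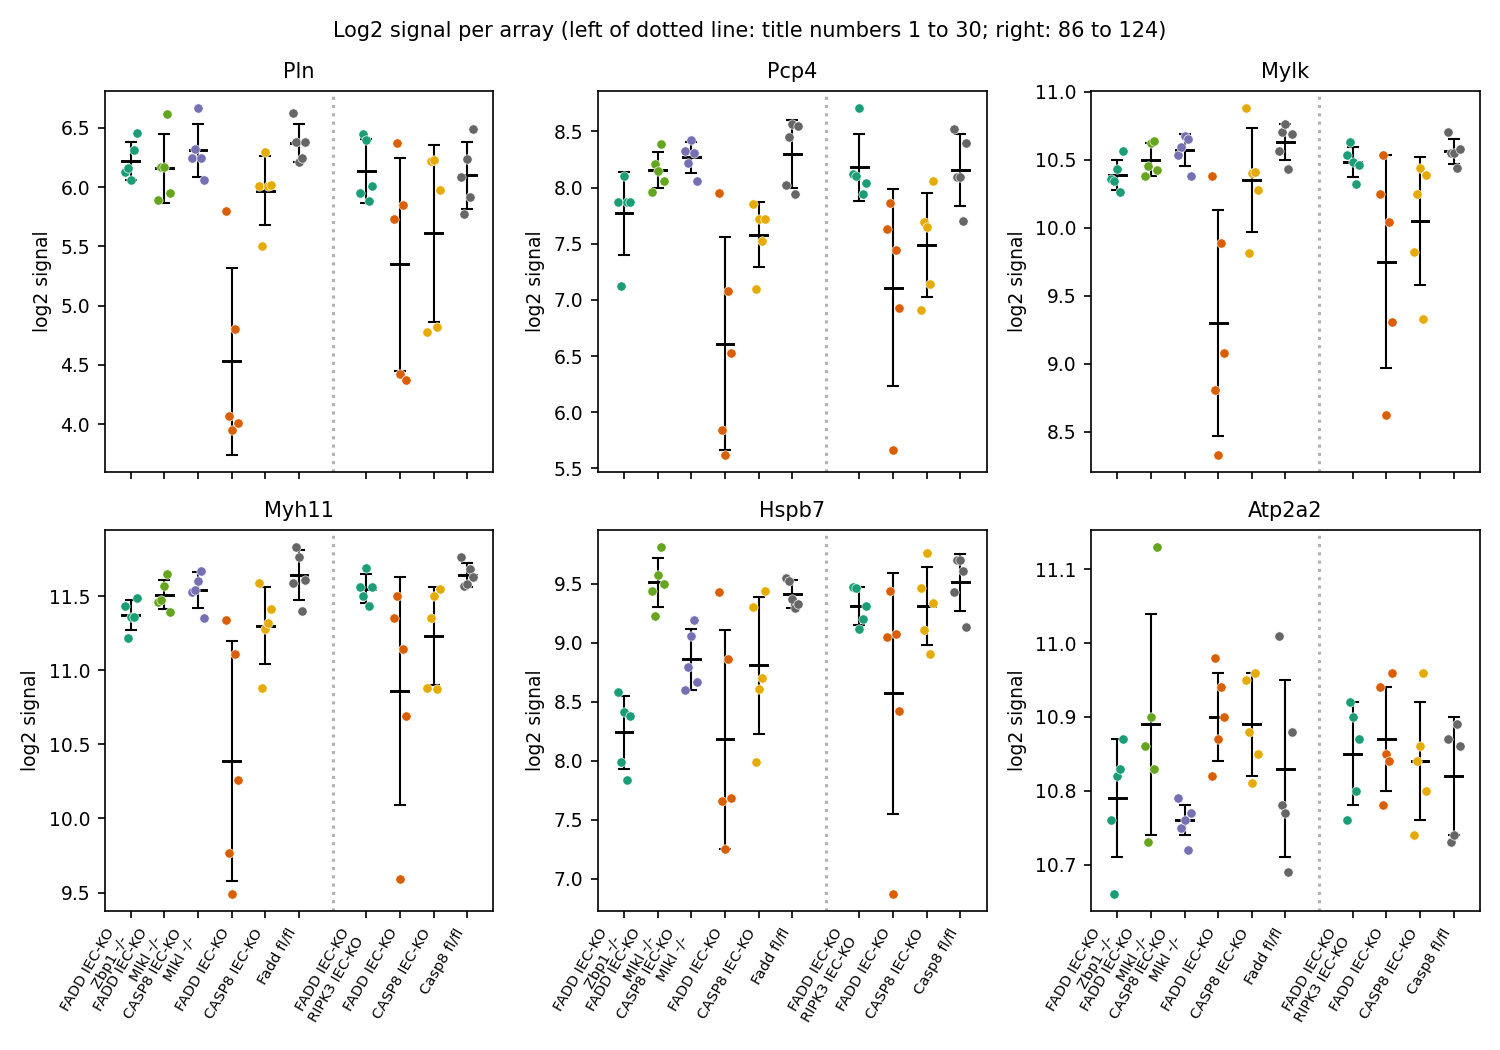
Log2 signal of 6 genes on each array (points), by genotype and title-number series, with the group mean (bar) and SD (whiskers), n = 5 per group. Each panel has its own axis, none of which starts at 0. Pln, Pcp4, Mylk and Myh11 drop on some FADD IEC-KO arrays and not on others, Hspb7 is also low in FADD IEC-KO Zbp1 -/-, and Atp2a2 stays between 10.66 and 11.13 on all arrays.

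Since serum response factor and myocardin act at CArG boxes, the promoters of the list were searched for that element, from 250 bases before to 50 after each annotated start. The sequences are RefSeq's, on build GRCm38.p6. Only the exact pattern CCWWWWWWGG, with W for A or T, counted as a box. The pattern is palindromic, so both strands were searched at once. A window was given for 33 of the 40 genes, and 4 of the 33 held a box (12.1%): Dmd, Ldb3, Myl9 and Srf. Over all genes with a window, 488 of 27025 held one (1.81%). The box of Myl9, a gene that fell, is shown with those of Srf, which did not pass. Srf was shown as a gene followed on every array, and Myl9 was chosen after its values were seen. Capitals mark the boxes, and both stretches are written 5′ to 3′ on the strand of the gene.
Myl9, chr2:156775263-156775352, plus strand: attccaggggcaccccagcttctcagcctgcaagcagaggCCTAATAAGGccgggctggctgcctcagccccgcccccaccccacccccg
Srf, chr17:46556175-46556284, minus strand: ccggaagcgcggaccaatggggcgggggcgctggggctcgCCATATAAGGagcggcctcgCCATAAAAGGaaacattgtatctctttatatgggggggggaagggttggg
Relative to the annotated start, the box of Myl9 begins at -161 and those of Srf at -82 and -62. Of the 30 genes with a window that fell in FADD IEC-KO of the series 1 to 30, 3 held a box. Boxes beyond these windows, and boxes that depart from the exact pattern, were not searched, so a gene without a match here may still have one. A match in letters shows no binding.

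Other genes of the contraction pathway moved the same way but less as a group. Both lists were chosen with earlier results of these data known, so the contrast between them is no test. Of 90 such genes 39 fell and none rose (median -0.23). In nitric oxide and cGMP relaxation 3 of 4 fell, among them Prkg1, the cGMP-dependent protein kinase, at -1.34 ± 0.20 (SE, adjusted p = 2.69e-05), Pde5a, which breaks down cGMP, at -0.77, and Mrvi1, a substrate of that kinase, at -0.74. Of 19 genes of adhesion, the dystroglycan complex and caveolae 10 fell, with Cav1, the caveolar coat protein, at -1.08 and Sgce, a sarcoglycan, at -1.06. Of 15 receptor and G protein genes 5 fell, including Tacr2, the neurokinin A receptor, at -1.26 and Plcb4, a phospholipase C, at -1.03. Of 11 further calcium and ion channel genes 6 fell, with Cacnb2, an L-type channel subunit, at -1.02, and of 18 other filament genes 7 fell, with Tns1 at -1.28 and Svil at -0.98. Of 9 further genes of light chain control 6 fell, with Ppp1r12a, the main targeting subunit of myosin phosphatase, at -0.55. Of 14 other muscle transcription factors 2 fell, Foxf1 at -0.44 and Mrtfb at -0.23, a share near the 10.1% of all genes that fell.

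Markers of other cells moved as well. Interferon gamma response genes rose in 14 of 14 (median 1.79), macrophage genes in 10 of 10 (0.80), neutrophil genes in 9 of 10 (1.49) and lymphocyte genes in 6 of 10 (0.69), where 8.59% of all genes rose. The summed signal of 10 neutrophil markers ran from 8.08 to 12.90 log2 units in FADD IEC-KO of the series 1 to 30, against 7.77 to 8.03 in Fadd fl/fl, and that of 14 interferon gamma genes from 11.48 to 13.74, against 10.85 to 11.32. Replicates 22, 23 and 117, with list means of 7.89, 7.73 and 7.66, had neutrophil sums of 12.90, 10.88 and 11.52, whereas replicate 25, with a list mean of 8.00, had 8.61. The interferon gamma sum of replicate 25 was 12.78 and its macrophage sum 11.06, both above every Fadd fl/fl array. Of the other cells of the muscle layer and stroma, 3 of 5 genes of interstitial cells of Cajal fell (Kit, their receptor kinase, by 0.78), as did 5 of 9 fibroblast genes (Dpt by 1.12) and 4 of 10 enteric neuron genes (Stmn2 by 0.79), while 3 of 17 striated muscle genes, 2 of 10 pericyte genes, 2 of 11 endothelial genes and 1 of 5 glial genes fell, shares nearer to the 10.1% of all genes that fell. The summed fibroblast signal ran from 11.98 to 12.76 in FADD IEC-KO, against 12.82 to 13.11 in Fadd fl/fl, and that of interstitial cells of Cajal from 10.84 to 11.57, against 11.80 to 11.97. Epithelial genes rose in 3 of 11 (median 0.14), with sums of 14.93 to 15.01, against 14.84 to 14.88. None of 5 mesothelial genes passed. Array signals have no true 0, so the absence of a cell type cannot be read from them. The part of immune infiltration, or of the mix of cells, in the fall of the 40 genes was not tested.

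**Figure D3:**
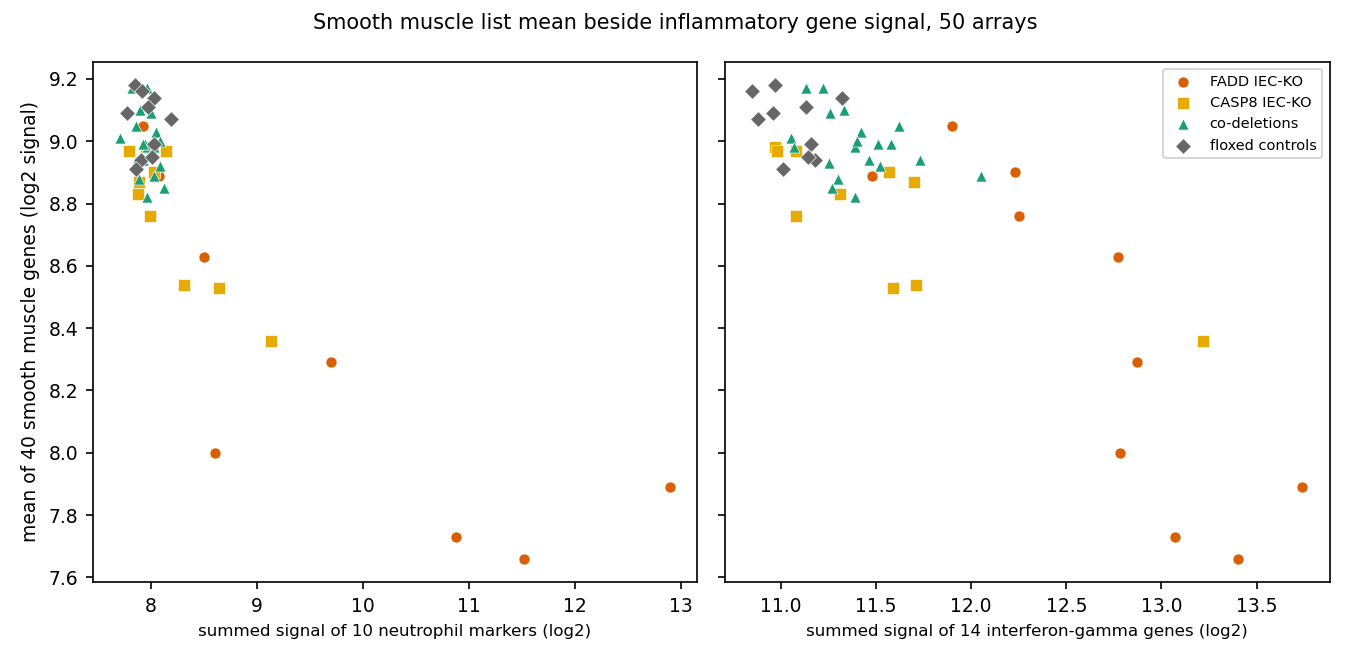
Mean log2 signal of the 40 genes on each of the 50 arrays against the summed signal of 10 neutrophil markers (left) and of 14 interferon gamma response genes (right), both in log2 units, with co-deletions standing for the 4 groups that lost a further gene. FADD IEC-KO replicates 22, 23 and 117 combine the highest neutrophil sums with list means of 7.89 or less, while replicate 25 has a list mean of 8.00 at a neutrophil sum of 8.61 and an interferon gamma sum of 12.78.

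In the series 86 to 124, where the control was the floxed line of the other gene, fewer of the genes were lower in FADD IEC-KO past the test. Against Casp8 fl/fl 12 of the 40 fell and none rose, where 4.25% of all genes fell, and 28 of the 40 had an unadjusted p under 0.05. The median difference was -0.50 (range -1.05 to 0.17). Every FADD IEC-KO array lay below every control array for 4 of the 40 (2.48% of all genes). The 12 were Myh11, Tagln, Tpm1, Cald1, Smtn, Mylk, Casq2, Cacna1c, Pcp4, Synm, Hspb7 and Chrm3. All 12 had also fallen in the series 1 to 30, which shares no array with this one. Since 36 of the 40 had fallen there, nearly any 12 of the list would overlap, and the overlap is no test. The count rested on single arrays: it was 2 without replicate 117, 5 without 124, 19 without 89 and 28 without 95. None of the 40 passed when only the 10 arrays compared entered the fit, and 5 passed with array weights.

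Cald1 and Chrm3 had the firmest differences there. Cald1 had 9.79, 9.70, 8.56, 9.41 and 9.39 in FADD IEC-KO (replicates 89, 95, 117, 120 and 124), against 10.15, 10.40, 10.09, 9.81 and 10.30 in Casp8 fl/fl (86, 91, 98, 105 and 119). All 5 FADD IEC-KO arrays were below the controls, at -0.78 ± 0.16 (SE, adjusted p = 0.00107). Chrm3 had 6.13, 6.03, 5.34, 5.93 and 5.33 in FADD IEC-KO, against 6.46, 6.42, 6.21, 6.20 and 6.48 in Casp8 fl/fl, at -0.60 ± 0.13 (SE, adjusted p = 0.00118) and without overlap. Myh11 had 11.35, 11.50, 9.59, 11.14 and 10.69 in FADD IEC-KO, against 11.76, 11.57, 11.58, 11.68 and 11.63 in Casp8 fl/fl. Replicate 117 was about 2 log2 units below the controls and replicates 89 and 95 just under them, which gave -0.79 ± 0.23 (SE, adjusted p = 0.0225). Synm had 8.36, 8.39, 6.39, 8.18 and 7.61 in FADD IEC-KO, against 8.73, 8.82, 8.74, 8.75 and 8.59 in Casp8 fl/fl, also without overlap, at -0.94 ± 0.25 (SE, adjusted p = 0.0106). Pcp4 had 7.63, 7.86, 5.66, 7.44 and 6.93 in FADD IEC-KO, against 8.52, 8.09, 8.09, 7.70 and 8.40 in Casp8 fl/fl, at -1.05 ± 0.30 (SE, adjusted p = 0.0158). It was the only gene of the 40 down 2-fold or more in this comparison, with replicates 95 and 89 near the lowest control array. Mylk had 10.25, 10.53, 8.62, 10.04 and 9.31 in FADD IEC-KO, against 10.70, 10.55, 10.55, 10.44 and 10.58 in Casp8 fl/fl, at -0.81 ± 0.25 (SE, adjusted p = 0.0282) and with replicate 95 inside the control range. Tpm1 had 12.07, 12.08, 10.96, 11.92 and 11.56 in FADD IEC-KO, against 12.22, 12.22, 12.18, 12.09 and 11.97 in Casp8 fl/fl, at -0.42 ± 0.14 (SE, adjusted p = 0.0385). Without replicate 117, Myh11 was at -0.47, Mylk at -0.53, Tpm1 at -0.23 and Pcp4 at -0.69, and none of these 4 passed.

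Several genes that fell clearly in the series 1 to 30 did not pass in the series 86 to 124. Pln had 5.73, 6.37, 4.42, 5.85 and 4.37 in FADD IEC-KO, against 6.09, 5.77, 6.24, 5.92 and 6.49 in Casp8 fl/fl, at -0.75 ± 0.30 (SE, adjusted p = 0.0889). Replicates 117 and 124 were low, replicate 89 just under the controls, and replicates 95 and 120 among them. Actg2 had 12.32, 12.20, 10.25, 12.24 and 11.69 in FADD IEC-KO, against 12.25, 12.39, 12.24, 12.44 and 11.83 in Casp8 fl/fl, at -0.49 ± 0.22 (SE, adjusted p = 0.144). Acta2 had 12.35, 12.41, 11.19, 12.28 and 11.82 in FADD IEC-KO, against 12.37, 12.43, 12.33, 12.40 and 12.26 in Casp8 fl/fl, at -0.35 ± 0.14 (SE, adjusted p = 0.107). For both actins replicate 117 was more than 1 log2 unit below the control mean and replicates 89 and 95 were inside the control range. Kcnmb1 had 9.52, 9.66, 8.78, 9.28 and 8.99 in FADD IEC-KO, against 9.57, 9.68, 9.63, 9.55 and 9.49 in Casp8 fl/fl, at -0.34 ± 0.13 (SE, adjusted p = 0.0839). Synpo2 had 10.31, 10.51, 8.51, 9.99 and 9.56 in FADD IEC-KO, against 10.47, 10.57, 10.38, 10.34 and 10.14 in Casp8 fl/fl, at -0.60 ± 0.24 (SE, adjusted p = 0.0945). In both genes replicate 117 was again the lowest and replicate 95 the highest of the FADD IEC-KO arrays. Flna had 12.16, 12.19, 10.85, 11.87 and 11.60 in FADD IEC-KO, against 12.33, 12.23, 12.21, 12.19 and 12.31 in Casp8 fl/fl, at -0.52 ± 0.18 (SE, adjusted p = 0.0533). Hspb6 had 8.94, 9.28, 7.44, 8.96 and 8.44 in FADD IEC-KO, against 9.23, 9.36, 9.01, 9.40 and 8.95 in Casp8 fl/fl, at -0.57 ± 0.22 (SE, adjusted p = 0.0819). These groups overlapped as well. Myocd had 6.19, 6.58, 4.83, 5.97 and 5.78 in FADD IEC-KO, against 6.50, 6.29, 5.86, 5.97 and 6.52 in Casp8 fl/fl, at -0.36 ± 0.19 (SE, adjusted p = 0.222). Replicate 95 was higher than every control array and replicate 117 lower by about 1 log2 unit. Rbpms2 differed by -0.34 ± 0.20 (SE, adjusted p = 0.273), Ppp1r14a by -0.52 ± 0.20 (SE, adjusted p = 0.0807) and Itga8 by -0.27 ± 0.16 (SE, adjusted p = 0.289).

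Other genes had small differences from the controls in the series 86 to 124. Itga7 had 7.50, 7.39, 6.37, 7.37 and 6.67 in FADD IEC-KO, against 7.31, 6.96, 7.06, 6.85 and 6.84 in Casp8 fl/fl, at 0.06 ± 0.15 (SE, adjusted p = 0.853). Its sign turned to -0.05, -0.03 and -0.02 without replicates 89, 95 and 120, so it had no settled direction. Hspb8 had 7.35, 7.91, 6.45, 7.19 and 6.89 in FADD IEC-KO, against 7.44, 7.11, 7.17, 7.23 and 7.43 in Casp8 fl/fl, at -0.12 ± 0.20 (SE, adjusted p = 0.766), and at 0.06 without replicate 117. Srf had 8.34, 8.34, 7.97, 8.50 and 8.28 in FADD IEC-KO, against 8.31, 8.01, 8.03, 8.35 and 7.84 in Casp8 fl/fl, at 0.17 ± 0.10 (SE, adjusted p = 0.27), and Atp2a2 differed by 0.05 ± 0.06 (SE, adjusted p = 0.636). These 2 genes thus passed in neither series. Chrm2 and Ppp1r12b, the other genes that had not passed in the series 1 to 30, did not pass here either, at -0.17 and -0.30.

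Averaged over both series, 35 of the 40 genes were lower in FADD IEC-KO than in the floxed controls past the test, where 14.4% of all genes fell. The largest mean falls were Pcp4 at -1.38 ± 0.21 (SE, adjusted p = 4.59e-06), Pln at -1.30 ± 0.21 (SE, adjusted p = 1.04e-05) and Casq2 at -1.27 ± 0.20 (SE, adjusted p = 5.6e-06). Chrm2, Ldb3, Ppp1r12b, Srf and Atp2a2 did not pass. The fall was larger in the series 1 to 30 for 36 of the 40 genes, but the test of the difference between the series passed for none of them (0.123% of all genes passed in either direction, and 10 of the 40 had an unadjusted p under 0.05). Its smallest adjusted p was 0.192, for Itga7, at -0.66 ± 0.21 log2 units (SE), and its largest size was for Pln, at -1.09 ± 0.42 (SE, adjusted p = 0.3). Without replicate 117 the count was 2. Other pathway genes in the series 86 to 124 numbered 15 that fell and 5 that rose of 90. Interferon gamma genes rose there in 12 of 14, macrophage genes in 7 of 10 and neutrophil genes in 1 of 10, where 6.80% of all genes rose, and fibroblast genes fell in 3 of 9, where 4.25% fell. The 5 of 90 and the 1 of 10 are near the share of all genes. The neutrophil sum ran from 7.93 to 11.52 in FADD IEC-KO, against 7.86 to 8.19 in Casp8 fl/fl.

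**Figure D4:**
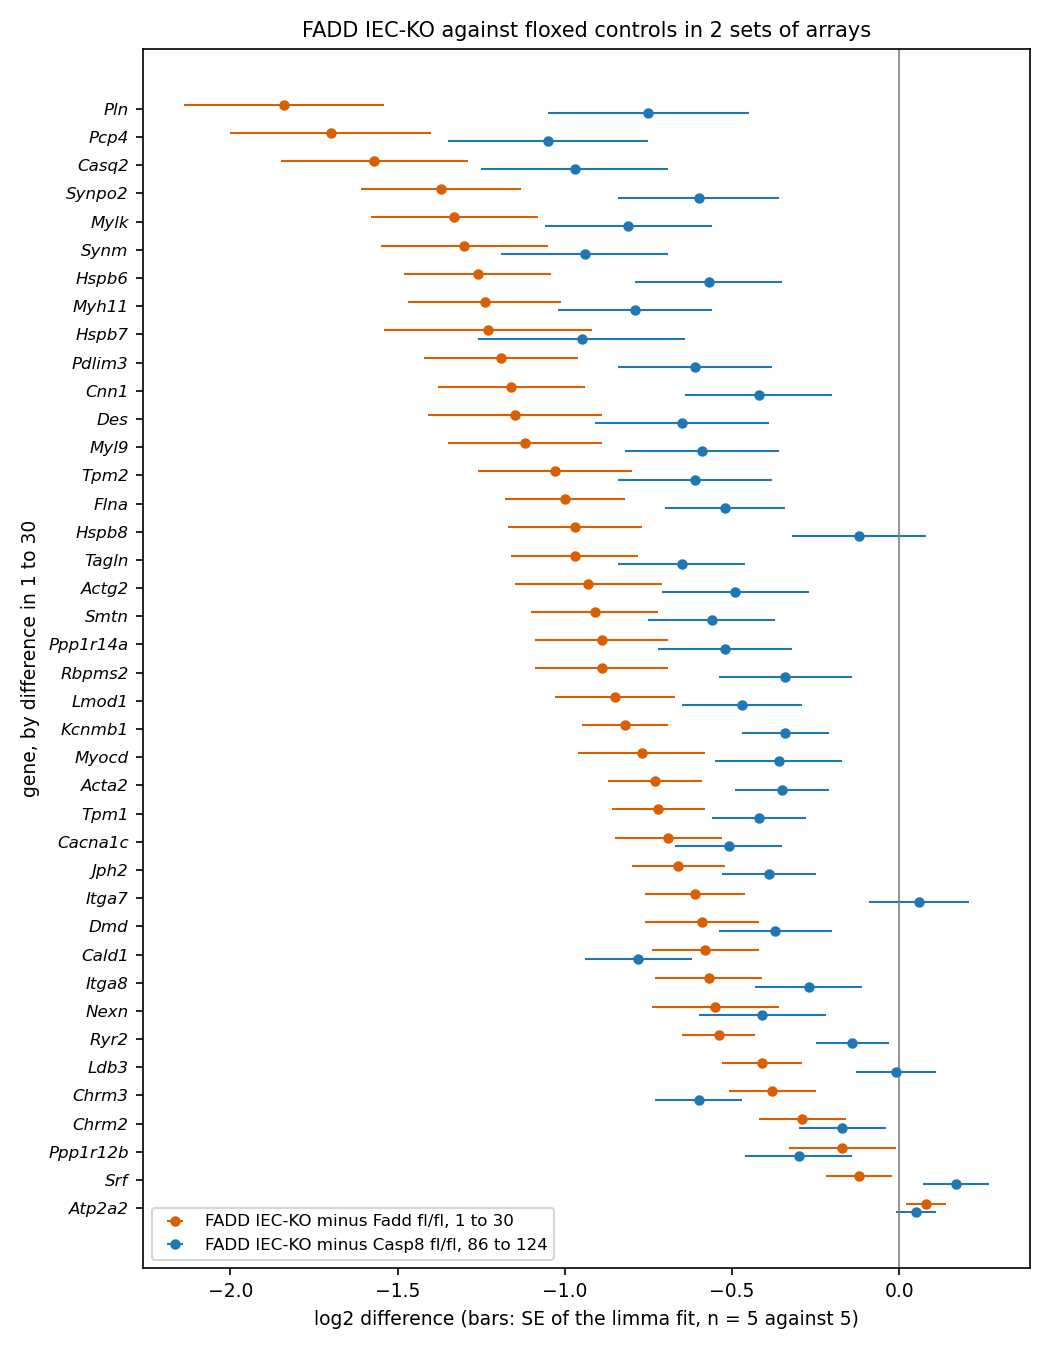
Log2 difference of each of the 40 genes between FADD IEC-KO and the floxed control of its series (points, with SE of the limma fit, n = 5 arrays against 5), ordered by the difference in the series 1 to 30. The points of the series 86 to 124 lie to the right for 36 genes, and Atp2a2 and Srf lie near 0 in both series.

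After loss of caspase-8 the list lay closer to the floxed controls, and few genes passed. In the series 1 to 30 none of the 40 passed against Fadd fl/fl (0.123% of all genes passed in either direction), with 5 at an unadjusted p under 0.05 and a median of -0.25. The CASP8 IEC-KO arrays lay below all floxed arrays for 7 of the 40 (1.60% of all genes): Pcp4, Casq2, Flna, Ryr2, Itga7, Tagln and Kcnmb1. In the series 86 to 124, 1 gene fell against Casp8 fl/fl (0.662% of all genes), with 11 at an unadjusted p under 0.05 and a median of -0.28. It was Cald1, which had 9.32, 9.49, 9.65, 9.24 and 9.80 in CASP8 IEC-KO (replicates 87, 92, 100, 104 and 108), against 10.15, 10.40, 10.09, 9.81 and 10.30 in Casp8 fl/fl. The groups did not overlap, at -0.65 ± 0.16 (SE, adjusted p = 0.0245). That count was 0 without CASP8 IEC-KO replicate 87 or 104 or Casp8 fl/fl replicate 91 or 119, 2 without CASP8 IEC-KO replicate 108, and 0 with only the arrays compared. The arrays lay below all controls for 8 of the 40 (1.26% of all genes).

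Averaged over both series, 3 of the 40 fell with caspase-8 loss (2.05% of all genes): Cald1 at -0.49 ± 0.11 (SE, adjusted p = 0.00973), Casq2 at -0.66 ± 0.20 (SE, adjusted p = 0.0396) and Pcp4 at -0.70 ± 0.21 (SE, adjusted p = 0.0409). Casq2 had 6.87, 6.28, 6.80, 6.81 and 6.99 in CASP8 IEC-KO of the series 1 to 30 (replicates 16 to 20), against 7.10, 7.18, 7.29, 7.28 and 7.41 in Fadd fl/fl. In the series 86 to 124 it had 6.00, 6.74, 6.66, 5.55 and 6.70 in CASP8 IEC-KO, against 7.35, 7.38, 7.01, 6.79 and 7.18 in Casp8 fl/fl. In both series every CASP8 IEC-KO array was the lower, with replicates 17, 87 and 104 the lowest. Pcp4 had 7.85, 7.10, 7.72, 7.52 and 7.72 in CASP8 IEC-KO of the series 1 to 30, against 8.02, 8.45, 8.57, 7.94 and 8.55 in Fadd fl/fl. It had 6.91, 7.69, 7.65, 7.14 and 8.06 in CASP8 IEC-KO of the series 86 to 124, against 8.52, 8.09, 8.09, 7.70 and 8.40 in Casp8 fl/fl, where the groups overlapped. Of the 40 genes 36 were lower in both series, a count with no share over all genes to set beside it. The count of 3 was 11 with only the arrays compared, 6 with the dimmest 40% of genes removed and 5 with array weights. Leaving out single arrays gave 7 without CASP8 IEC-KO replicate 108, 5 without 16, and 1 without 17, 19, 87 or 104, Fadd fl/fl 27 or 28, or Casp8 fl/fl 86 or 91. Single arrays led here too: replicate 17 was the lowest of its group for 33 of the 40 genes and replicate 104 for 30. Their neutrophil sums were 8.64 and 9.13, against 7.77 to 8.03 in Fadd fl/fl and 7.86 to 8.19 in Casp8 fl/fl. Replicate 87, with a list mean of 8.54, had a neutrophil sum of 8.31. The interferon gamma sums of replicates 17, 87 and 104 were 11.59, 11.71 and 13.22. Those of replicates 19 and 100, with list means of 8.87 and 8.90, were 11.70 and 11.57.

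Muscle genes were higher after loss of caspase-8 than after loss of FADD, averaged over both series, in 17 of the 40 (2.13% of all genes), and lower in none. The deleted gene and the floxed mouse line cannot be told apart in this comparison. The median difference was 0.36, and Pln had the largest at 0.85 ± 0.21 (SE, adjusted p = 0.0125), followed by Hspb7 at 0.69 ± 0.22 (SE, adjusted p = 0.0534), which did not pass. Hspb6 at 0.63 ± 0.16 (SE, adjusted p = 0.0127), Synpo2 at 0.67 ± 0.17 (SE, adjusted p = 0.0149) and Myh11 at 0.64 ± 0.17 (SE, adjusted p = 0.0171) were among the 17, and Mylk, Synm and Myl9 passed as well. In the series 1 to 30 Myh11 had 11.59, 10.88, 11.28, 11.32 and 11.41 in CASP8 IEC-KO, against 11.34, 9.77, 9.49, 11.11 and 10.26 in FADD IEC-KO. In the series 86 to 124 it had 10.88, 11.35, 11.50, 10.87 and 11.55 in CASP8 IEC-KO, against 11.35, 11.50, 9.59, 11.14 and 10.69 in FADD IEC-KO. The genotypes overlapped in both series, since the highest FADD IEC-KO arrays reached the caspase-8 range. The 17 calls depended on the fit and on single arrays: none passed with only the arrays compared or without FADD IEC-KO replicates 22 and 23, 4 passed with array weights and 9 with group variance weights. Without single FADD IEC-KO arrays the count was 30 (without 21), 3 (22 or 23), 7 (25), 29 (95), 2 (117) and 6 (124). Without single CASP8 IEC-KO arrays it was 7 (16, 20 or 92), 8 (18 or 19), 5 (100) and 6 (108).

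**Figure D5:**
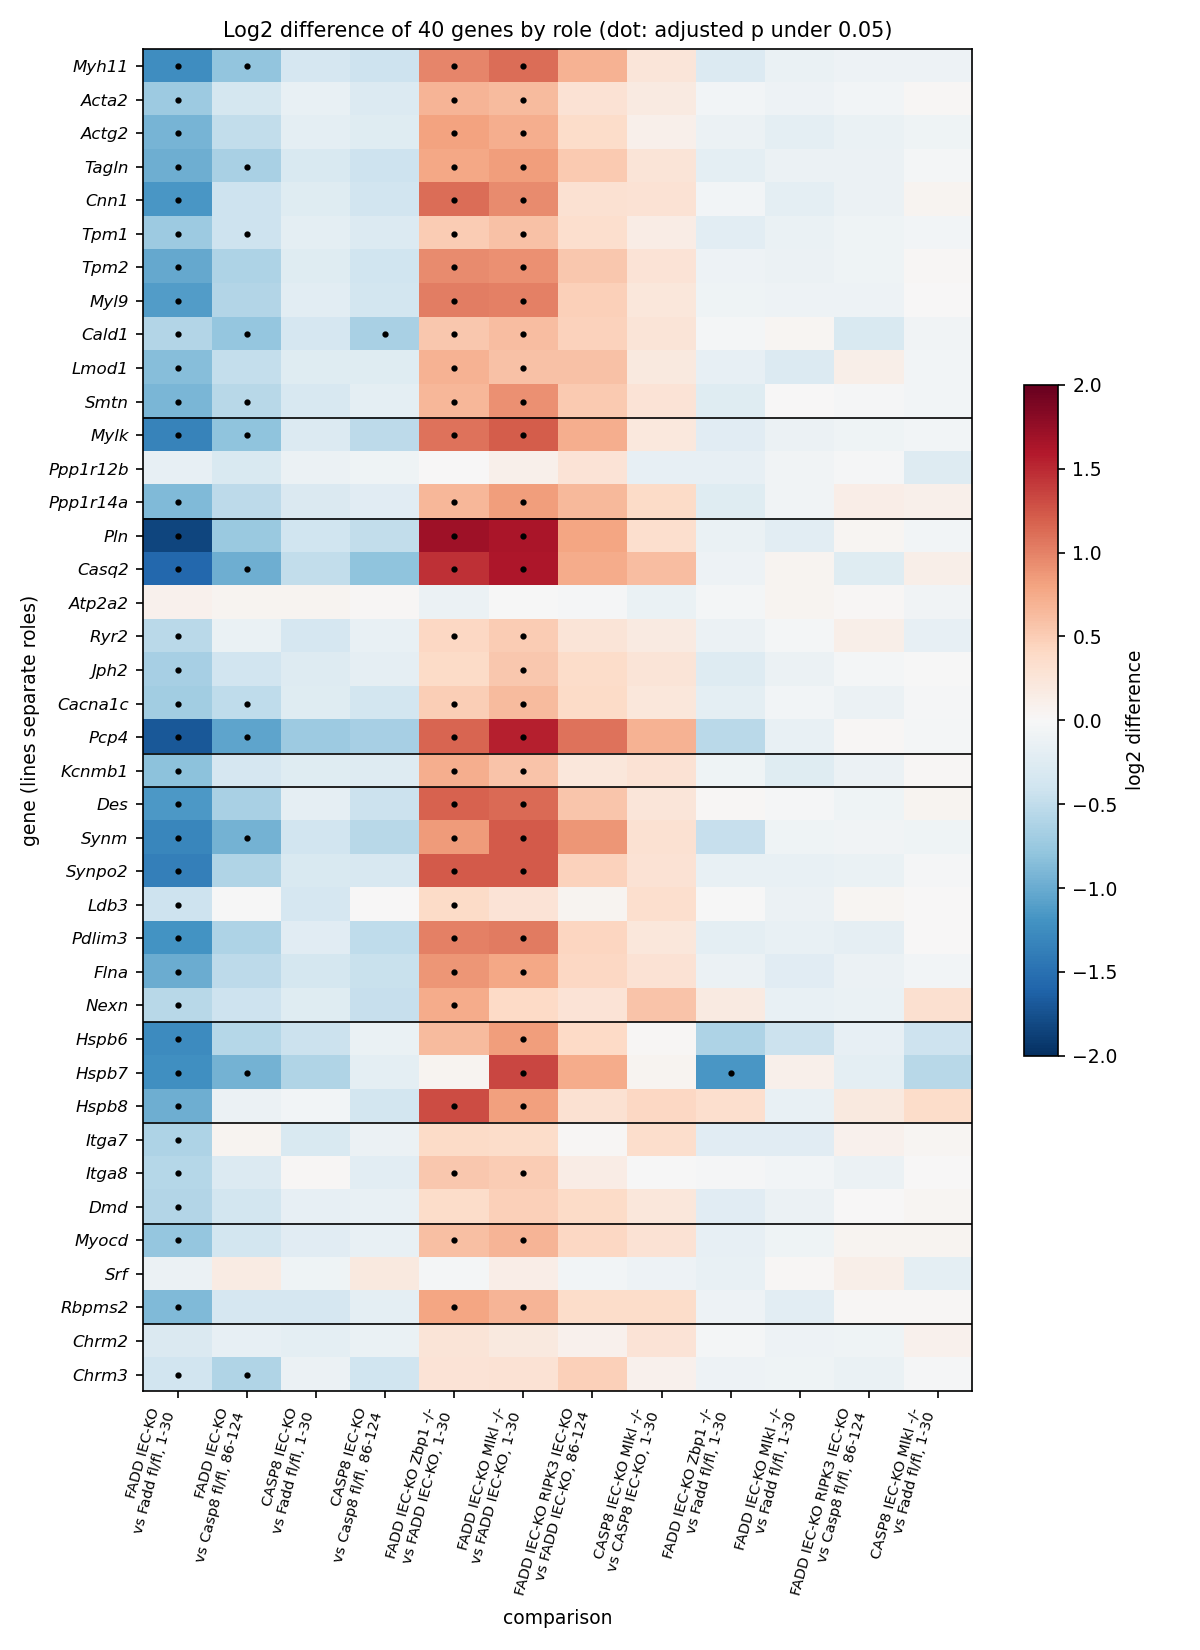
Log2 differences of the 40 genes, grouped by role, in 12 comparisons within a series, with a dot where the adjusted p was under 0.05. Blue columns at the left show the falls after FADD loss, red columns in the middle the rises when Zbp1 or Mlkl was lost as well, and the pale columns at the right the co-deletions against floxed controls, where 1 dot remains, at Hspb7.

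With Zbp1 or Mlkl lost in addition to FADD, the contractile genes stood near the floxed level. Against FADD IEC-KO, 30 of the 40 rose in FADD IEC-KO Zbp1 -/- (median 0.68, with 5.61% of all genes rising) and 31 of the 40 rose in FADD IEC-KO Mlkl -/- (median 0.71, with 2.91% of all genes rising). None fell in either comparison. The groups stood apart for 12 genes in the Zbp1 co-deletion (3.03% of all genes) and for 10 in the Mlkl co-deletion (2.01%). Both comparisons share the 5 FADD IEC-KO arrays, so they are not independent. The 11 contractile filament genes rose in each, as did 7 of 7 dense body and intermediate filament genes with Zbp1 loss and 5 of 7 with Mlkl loss.

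Pln had 6.13, 6.16, 6.06, 6.31 and 6.46 in FADD IEC-KO Zbp1 -/- (replicates 1 to 5) and 5.89, 6.17, 6.17, 6.62 and 5.95 in FADD IEC-KO Mlkl -/- (11 to 15), against 5.80, 4.07, 3.95, 4.80 and 4.01 in FADD IEC-KO. All arrays of both co-deletions were higher, by 1.70 ± 0.30 (SE, adjusted p = 0.000561) with Zbp1 loss and 1.63 ± 0.30 (SE, adjusted p = 0.00125) with Mlkl loss. Myh11 had 11.43, 11.22, 11.36, 11.36 and 11.49 in FADD IEC-KO Zbp1 -/- and 11.46, 11.47, 11.57, 11.65 and 11.39 in FADD IEC-KO Mlkl -/-, against 11.34, 9.77, 9.49, 11.11 and 10.26 in FADD IEC-KO. It rose by 0.98 ± 0.23 (SE, adjusted p = 0.00584) with Zbp1 loss, where replicate 21 overlapped, and by 1.11 ± 0.23 (SE, adjusted p = 0.00404) with Mlkl loss, without overlap. Mylk had 10.36, 10.34, 10.43, 10.26 and 10.56 in FADD IEC-KO Zbp1 -/- and 10.38, 10.45, 10.62, 10.64 and 10.42 in FADD IEC-KO Mlkl -/-, against 10.38, 8.81, 8.33, 9.89 and 9.08 in FADD IEC-KO. Its differences were 1.09 ± 0.25 (SE, adjusted p = 0.00414) with Zbp1 loss and 1.21 ± 0.25 (SE, adjusted p = 0.00381) with Mlkl loss. Pcp4 had 7.87, 7.12, 8.10, 7.87 and 7.87 in FADD IEC-KO Zbp1 -/- and 7.96, 8.21, 8.15, 8.39 and 8.06 in FADD IEC-KO Mlkl -/-, against 7.95, 5.84, 5.62, 7.08 and 6.53 in FADD IEC-KO, with differences of 1.16 ± 0.30 (SE, adjusted p = 0.00909) and 1.55 ± 0.30 (SE, adjusted p = 0.0024) in that order. Acta2 had 12.41, 12.26, 12.34, 12.32 and 12.42 in FADD IEC-KO Zbp1 -/- and 12.26, 12.37, 12.30, 12.37 and 12.19 in FADD IEC-KO Mlkl -/-, against 12.16, 11.51, 11.31, 12.01 and 11.35 in FADD IEC-KO. Both groups stood above FADD IEC-KO without overlap, at 0.68 ± 0.14 (SE, adjusted p = 0.00204) with Zbp1 loss and 0.63 ± 0.14 (SE, adjusted p = 0.00637) with Mlkl loss. Kcnmb1 had 9.57, 9.59, 9.38, 9.59 and 9.62 in FADD IEC-KO Zbp1 -/- and 9.35, 9.40, 9.60, 9.42 and 9.19 in FADD IEC-KO Mlkl -/-, against 9.32, 8.58, 8.39, 9.14 and 8.66 in FADD IEC-KO. It rose by 0.73 ± 0.13 (SE, adjusted p = 0.000662) and 0.57 ± 0.13 (SE, adjusted p = 0.00656) in that order.

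The spread narrowed too. Across the 5 arrays of a group, Synpo2 ran over 10.15 to 10.44 in FADD IEC-KO Zbp1 -/- and 10.04 to 10.42 in FADD IEC-KO Mlkl -/-, against 8.26 to 10.11 in FADD IEC-KO. Flna ran over 12.11 to 12.31 and 11.97 to 12.21 in the same co-deletions, against 10.64 to 11.96 in FADD IEC-KO, and Actg2 over 12.04 to 12.33 and 12.04 to 12.25, against 10.84 to 12.07. For Synpo2 the rise was 1.22 ± 0.24 (SE, adjusted p = 0.00129) with Zbp1 loss and 1.22 ± 0.24 (SE, adjusted p = 0.00264) with Mlkl loss. The receptors were again the quietest role: Chrm3 differed by 0.28 and 0.29, and Chrm2 by 0.25 and 0.20, with no adjusted p under 0.147. Myocd rose by 0.60 ± 0.19 (SE, adjusted p = 0.0316) with Zbp1 loss and by 0.68 ± 0.19 (SE, adjusted p = 0.0228) with Mlkl loss, whereas Srf differed by -0.04 and 0.14 and did not pass.

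These counts also depended on the fit. With only the arrays compared, 2 genes passed for Zbp1 loss (Pln and Hspb8) and none for Mlkl loss, whereas with group variance weights 30 and 31 passed. Without FADD IEC-KO replicates 22 and 23 together, 2 passed for Zbp1 loss and none for Mlkl loss. Leaving out replicate 22 alone gave 16 for Zbp1 loss, and leaving out replicate 23 alone gave 18 for Zbp1 loss and 17 for Mlkl loss. The immune markers moved the other way in the same arrays. Of 10 neutrophil genes 10 fell with Zbp1 loss and 8 with Mlkl loss, and of 14 interferon gamma genes 14 and 13 fell, where 5.14% and 2.93% of all genes fell. Fibroblast genes rose in 5 of 9 with Zbp1 loss and 2 of 9 with Mlkl loss. Of the 90 other pathway genes 30 rose and 1 fell with Zbp1 loss, and 27 rose with Mlkl loss. Their part in the result was not tested.

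Epithelial loss of RIPK3 with FADD went the same way without passing. In FADD IEC-KO RIPK3 IEC-KO 38 of the 40 genes were higher than in FADD IEC-KO of the series 86 to 124, with a median of 0.41, but none passed (0.754% of all genes passed in either direction). At an unadjusted p under 0.05, 24 were higher. Chrm3 came nearest, with the double knockout (replicates 88, 93, 112, 113 and 123) at 6.45, 6.18, 6.09, 6.39 and 6.02, against 6.13, 6.03, 5.34, 5.93 and 5.33 in FADD IEC-KO, at 0.47 ± 0.13 (SE, adjusted p = 0.0537). Pcp4 had 8.12, 8.10, 8.71, 7.94 and 8.04 in the double knockout, against 7.63, 7.86, 5.66, 7.44 and 6.93 in FADD IEC-KO. It had the largest difference, 1.08 ± 0.30 (SE, adjusted p = 0.0647), and every double knockout array was higher. Myh11 had 11.56, 11.50, 11.69, 11.43 and 11.56 in the double knockout, against 11.35, 11.50, 9.59, 11.14 and 10.69 in FADD IEC-KO, at 0.69 ± 0.23 (SE, adjusted p = 0.142). The count varied with single FADD IEC-KO arrays: it was 12 without replicate 95, 3 without 89, 1 without 120 and 0 without 117, and 3 with the dimmest 40% of genes removed.

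With caspase-8 lost, further loss of Mlkl gave no call in the list. In CASP8 IEC-KO Mlkl -/- none of the 40 passed against CASP8 IEC-KO (0.421% of all genes passed in either direction), with 7 higher and 1 lower at an unadjusted p under 0.05 and a median of 0.25. The largest difference was Pcp4, which had 8.33, 8.22, 8.42, 8.31 and 8.06 in CASP8 IEC-KO Mlkl -/- (replicates 6 to 10), against 7.85, 7.10, 7.72, 7.52 and 7.72 in CASP8 IEC-KO. The groups did not overlap, at 0.69 ± 0.30 (SE, adjusted p = 0.303). Nexn had the smallest adjusted p, at 0.57 ± 0.19 (SE, adjusted p = 0.173), and it passed with only the arrays compared and with group variance weights. Whether the effect of Mlkl loss differed between the 2 backgrounds was tested as an interaction, and none of the 40 passed (0.0154% of all genes passed in either direction). A background here is the deleted gene together with its mouse line, which cannot be told apart. The effect without caspase-8 minus that without FADD had a median of -0.45 log2 units, 20 genes had an unadjusted p under 0.05, and the smallest adjusted p was 0.25, for Pln at -1.29 ± 0.42. Without FADD IEC-KO replicate 21 the count was 2.

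Set against the floxed controls of their series, the co-deletions left little difference in the list. Against Fadd fl/fl, FADD IEC-KO Mlkl -/- had a median of -0.12 over the 40 genes and none that passed (0.159% of all genes passed in either direction), with a smallest adjusted p of 0.563. Against the same controls, CASP8 IEC-KO Mlkl -/- had a median of -0.03 and none that passed (0.0462% of all genes), with a smallest adjusted p of 0.661. Against Casp8 fl/fl, FADD IEC-KO RIPK3 IEC-KO had a median of -0.08 and none that passed (0.0769% of all genes), with a smallest adjusted p of 0.478. No gene of the 40 reached an unadjusted p under 0.05 in these 3 comparisons, of which the first 2 share controls. For FADD IEC-KO Zbp1 -/- against Fadd fl/fl the median was -0.15. A p that misses the threshold does not show that the levels were the same. The SE of a difference was 0.23 log2 units for Myh11 and 0.30 for Pln. A difference had to be several times its SE to pass, so differences well above these sizes could be missed. The controls of the 2 series differed in none of the 40 (0.0359% of all genes passed in either direction), with a median of -0.10 for Casp8 fl/fl against Fadd fl/fl and 2 genes lower at an unadjusted p under 0.05.

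Hspb7 was the exception in FADD IEC-KO Zbp1 -/-. It had 8.58, 7.99, 8.41, 7.84 and 8.38 in FADD IEC-KO Zbp1 -/-, against 9.55, 9.52, 9.37, 9.29 and 9.33 in Fadd fl/fl. All 5 arrays were below the controls, at -1.17 ± 0.31 (SE, adjusted p = 0.0467), the 1 gene of the 40 that passed (0.575% of all genes fell). In FADD IEC-KO Mlkl -/- it had 9.44, 9.23, 9.57, 9.81 and 9.50. The Zbp1 co-deletion was lower than the Mlkl co-deletion without overlap, at -1.27 ± 0.31 (SE, adjusted p = 0.0415), again the 1 gene that passed (0.200% of all genes fell). Against FADD IEC-KO, Hspb7 thus differed by 0.06 ± 0.31 (SE, adjusted p = 0.933) with Zbp1 loss and by 1.33 ± 0.31 (SE, adjusted p = 0.0073) with Mlkl loss. Both single calls lay close to the threshold. Against Fadd fl/fl no gene passed when any 1 of Fadd fl/fl replicates 26 to 30 or FADD IEC-KO Zbp1 -/- replicates 2 to 5 was left out, and against FADD IEC-KO Mlkl -/- none passed without any 1 of replicates 2 to 5 or 11 to 15. With only the arrays compared, Hspb7 passed in both, joined by Hspb6 against Fadd fl/fl and by Hspb8 against FADD IEC-KO Mlkl -/-. Loss of Zbp1 and the mouse line that carries it cannot be told apart in FADD IEC-KO Zbp1 -/-.

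Of the other small heat shock genes, Hspb6 was also low in that genotype. Hspb6 had 8.94, 8.48, 8.96, 8.76 and 8.79 in FADD IEC-KO Zbp1 -/-, against 9.29, 9.32, 9.30, 9.51 and 9.61 in Fadd fl/fl, without overlap but not past the test, at -0.62 ± 0.22 (SE, adjusted p = 0.168). Hspb8 had 7.80, 7.73, 7.73, 7.80 and 8.05 in FADD IEC-KO Zbp1 -/-, against 7.61, 7.29, 7.30, 7.32 and 7.89 in Fadd fl/fl, at 0.34 ± 0.20 (SE, adjusted p = 0.514). Against FADD IEC-KO, Hspb8 rose by 1.31 ± 0.20 (SE, adjusted p = 0.000112), the smallest adjusted p of the 40 in that comparison. In CASP8 IEC-KO Mlkl -/- Hspb7 had 8.60, 8.79, 9.06, 9.19 and 8.67, below every Fadd fl/fl array, at -0.55 ± 0.31 (SE, adjusted p = 0.695). Hspb6 lay below every Fadd fl/fl array in that genotype as well, at -0.41 ± 0.22 (SE, adjusted p = 0.664).

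Within the list, the difference of a gene can be set against the mean of the other 39 on the same array, which subtracts the mean change of those genes. By that measure the differences between FADD IEC-KO and Fadd fl/fl were -0.99 log2 units for Pln, -0.71 for Casq2, -0.51 for Synpo2 and -0.39 for Hspb6, each without overlap between the groups. They were 0.98 for Atp2a2, 0.78 for Srf, 0.60 for Chrm2, 0.51 for Chrm3 and 0.23 for Jph2, also without overlap. Since most of the list fell, a gene that did not move gets a positive value by this measure, and the fall of the others can separate its groups. Such a value means a smaller fall than the others or none, and not a rise. In FADD IEC-KO against Casp8 fl/fl the genes that stood apart without overlap were Myh11 at -0.32, Synm at -0.48 and Itga7 at 0.55. These values are a description with no test.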

How the data were processed

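Colon RNA was measured on 50 Affymetrix gene arrays. Per the labels' protocols, 100 ng of total RNA was labelled with the WT PLUS kit. The deposited values are log2 signals that the authors made with Expression Console and Transcriptome Analysis Console, per the submitters' processing notes with a normalization algorithm not given in the sources used here.

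Of 22142 probe sets, 19527 carried 1 gene symbol and 2615 none. The probe set with the highest mean over all arrays stood for each gene, which dropped 33 and left 19494 genes. Array medians ran from 6.41 to 6.47 and single values from 1.18 to 13.3. The number of arrays and the spread between them limit the precision. Comparisons used limma 3.58.1 in R 4.3.3, with 1 mean per group over 50 arrays (40 residual degrees of freedom), Benjamini-Hochberg adjustment over all genes and a threshold of 0.05. The procedure was tested on simulated data.

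The 40 genes, their roles, the 90 other pathway genes and the marker lists were chosen with earlier results of these data known. Genes followed array by array were the 2 with the smallest adjusted p of each role in FADD IEC-KO against Fadd fl/fl, plus Myh11, Acta2, Actg2, Myocd and Srf, which made 20. Others are named for a call in a comparison, for an extreme of their role or list, or for a missing call, after their values were seen. Alternatives were fits of only the arrays compared, the dimmest 40% of genes removed, quantile normalization between arrays, limma's trend and robust options, the mean of a gene's probe sets, array weights, omission of FADD IEC-KO replicates 22 and 23 together, and omission of each array. Group variance weights were added after seeing the data. RefSeq's GRCm38.p6 gave promoter sequences.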

Additional observations from a re-analysis of the deposited data

Results flagged for a closer look

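Single arrays stood apart within their group of 5 for 11 of the 210 combinations of a followed gene, or the list mean, and a group, by a gap to the nearest array that was large against the range of the group. Chance gives about 1 in 20 such groups, so the 11 of 210 are near the share that chance gives. CASP8 IEC-KO replicate 17 accounted for 3, with Acta2 at 11.99 (the other 4 arrays at 12.26 to 12.36), Kcnmb1 at 9.09 (9.41 to 9.52) and Myocd, the coactivator of the contractile genes, at 5.84 (6.09 to 6.18). In FADD IEC-KO Zbp1 -/-, replicate 2 was low for Tpm1 at 11.88 (12.04 to 12.08) and for Pcp4 at 7.12 (7.87 to 8.10), replicate 3 was low for Kcnmb1 at 9.38 (9.57 to 9.62), and replicate 5 was high for Hspb8 at 8.05 (7.73 to 7.80). In FADD IEC-KO RIPK3 IEC-KO, replicate 112 was high for Pcp4 at 8.71 (7.94 to 8.12) and replicate 93 was high for Myocd at 6.54 (6.21 to 6.24). CASP8 IEC-KO replicate 87 was low for Chrm3, the muscarinic receptor, at 5.55 (5.97 to 6.14). Fadd fl/fl replicate 30 was high for Rbpms2 at 8.44 (8.23 to 8.28). None of the 11 lay in a FADD IEC-KO group, whose arrays spread widely throughout.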

How the results depend on the processing

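No paired analysis was possible because the replicate numbers are unique to each array, so that no groups share them. Counts are genes of the 40 that passed, given without a share over all genes. With only the arrays compared, the counts were 0 for FADD IEC-KO against Casp8 fl/fl, 0 for CASP8 IEC-KO against Casp8 fl/fl, 11 for CASP8 IEC-KO against floxed in both series, 0 for CASP8 IEC-KO against FADD IEC-KO, 2 and 0 for FADD IEC-KO Zbp1 -/- and Mlkl -/- against FADD IEC-KO, 1 for CASP8 IEC-KO Mlkl -/- against CASP8 IEC-KO, and 2 each for FADD IEC-KO Zbp1 -/- against Fadd fl/fl and against FADD IEC-KO Mlkl -/-. Trend and robust moderation gave 0 in the last pair. With the dimmest 40% of genes removed, the counts were 2 for CASP8 IEC-KO against Casp8 fl/fl, 6 against floxed in both series, and 3 for FADD IEC-KO RIPK3 IEC-KO against FADD IEC-KO, where quantile normalization gave 1. Array weights gave 5 for FADD IEC-KO against Casp8 fl/fl, 5 for CASP8 IEC-KO against floxed, 4 for CASP8 IEC-KO against FADD IEC-KO and 2 for CASP8 IEC-KO Mlkl -/- against CASP8 IEC-KO. Group variance weights, chosen after seeing the data, gave 9 and 1 in the last pair. Without FADD IEC-KO replicates 22 and 23, the counts were 10 against Fadd fl/fl, 0 for CASP8 IEC-KO against FADD IEC-KO, and 2 and 0 for the Zbp1 and Mlkl co-deletions against it; fewer arrays entered these fits.

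Leaving out each array gave 32 to 37 for FADD IEC-KO against Fadd fl/fl, 2 to 28 against Casp8 fl/fl, 34 to 37 in both series and 0 to 2 for the difference between series. For CASP8 IEC-KO it gave 0 to 2 against Casp8 fl/fl, 1 to 7 against floxed and 2 to 30 against FADD IEC-KO. It gave 16 to 34, 17 to 32 and 0 to 12 for the Zbp1, Mlkl and RIPK3 co-deletions against FADD IEC-KO, 0 to 1 for FADD IEC-KO Zbp1 -/- against Fadd fl/fl and against FADD IEC-KO Mlkl -/-, and 0 to 2 for the Mlkl interaction. In FADD IEC-KO against Casp8 fl/fl, Itga7, at 0.06 over all arrays, ran from -0.05 to 0.23, with values of -0.05, -0.03 and -0.02 without replicates 89, 95 and 120, and Hspb8, at -0.12 over all arrays, ran from -0.30 to 0.06, the last without replicate 117. Of the followed genes' calls in FADD IEC-KO, those lost in such fits were Chrm3 in 4 of 10 and Itga8 in 1 of 10 against Fadd fl/fl, and Tpm1 in 6 of 10, Mylk in 4, Myh11 in 2 and Pcp4 in 1 against Casp8 fl/fl. The cause was not tested. Pln and Ppp1r12b had dim signals.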

Other observations

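Part of the contraction genes outside the list rose when Zbp1 was lost in addition to FADD. Against FADD IEC-KO, FADD IEC-KO Zbp1 -/- had 3 of 4 genes of nitric oxide and cGMP relaxation that rose, 9 of 19 of adhesion, the dystroglycan complex and caveolae, 7 of 18 of the other filament and cytoskeleton genes, 4 of 15 receptors and G proteins, 3 of 11 channels, 2 of 9 genes of light chain control and 2 of 14 transcription factors, where 5.61% of all genes rose. Examples are Prkg1, the cGMP-dependent protein kinase, higher by 0.87 log2 units, Cav1 by 1.01 and Svil by 0.99, each with an adjusted p under 0.05 in the limma fit. Gna13, a G protein subunit, was the 1 gene of the 90 that fell, at -0.25.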
